A study of Mus musculus with 9 samples.

Results

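AP-1 is a dimeric transcription factor of Fos and Jun family proteins that couples growth factor, stress and adhesion signals to gene expression. The Fos proteins (Fos, Fosb, Fosl1 and Fosl2) bind DNA as partners of a Jun protein, whereas the Jun proteins (Jun, Junb and Jund) also pair with each other. Atf3 is a stress-induced relative that pairs with Jun proteins, and Maff and Mafk are small Maf factors, which lack a transactivation domain of their own and act through partners such as the CNC and Bach factors. In liver, AP-1 is known for its part in the priming of regeneration and in the response to HGF/SF1. These 10 genes were followed in MLP29 cells through every probe set that names 1 of them alone, which gave 12 probe sets of 22626 analysed and 10 genes of 12393 measured. Fosl1 and Jun had 2 probe sets each and the other genes 1, and 0 probe sets named a member together with another gene.

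The mouse hepatic progenitor line MLP29 scatters and migrates in response to HGF/SF1, the ligand of the receptor Met. RNA was measured on 9 Affymetrix Mouse430A_2 arrays, 3 per condition. In each of 3 independent experiments the cells were starved in 0.1% serum for at least 16 h and were then left untreated, stimulated with HGF/SF1 (20 ng/ml), or given 10 µg/ml of the function-blocking antibody BMB5 against α5β1 integrin, the fibronectin receptor. Cells were treated for 24 h. All conditions share the starvation and the single cell line. A control antibody is the label of no array, and the addition of an antibody and the block of the integrin cannot be told apart. The paper's methods name an IgG antibody among the controls of its experiments, but it describes the control cells of the arrays as untreated. Values are log2 summaries per probe set as deposited, and 3 arrays per condition limit the precision of each of them.

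The antibody array of experiment 1 stood apart from the other antibody arrays in its difference from untreated cells. It differed from the untreated array of its experiment by at least 2-fold at 209 probe sets, against 1515 in experiment 2 and 1219 in experiment 3. Of the 12 member probe sets, 1 was changed by this much in experiment 1, 6 in experiment 2 and 5 in experiment 3. HGF/SF1 arrays differed from untreated arrays at 647, 43 and 161 probe sets. Antibody arrays differed from HGF/SF1 arrays at 1025, 1284 and 1272, where experiment 1 was closer to the others. Differences of the members after the blockade are therefore also given without its first array. That array was singled out by how few probe sets differed from the untreated array, so smaller SE and p values without it are no independent support. The fits without it keep the untreated array of experiment 1 and do not pair the arrays. Of 10 liver progenitor and biliary markers measured, 5 had a mean above the median probe set mean of 6.02. The keratin genes Krt8, Krt18 (13.81 to 14.14) and Krt19 were bright on all arrays, as was the E-cadherin gene Cdh1 (10.42 to 11.19). The keratin gene Krt7 was dimmer (6.26 to 7.03). Epcam (4.09 to 4.60) and Afp (3.81 to 4.72) lay below that median on every array. Sox9, Prom1 and Onecut1 had means below it (5.28, 4.39 and 4.05). Of 7 leukocyte markers measured, Cd14 alone exceeded that median, and the leukocyte antigen gene Ptprc lay between 3.02 and 3.38. The summed linear level of these markers ranged from 3410 to 4770 without treatment, from 3400 to 4500 with HGF/SF1 and from 1610 to 5330 with the antibody, and 0 of them were called in limma at an unadjusted p under 0.05 after either treatment. Cd14 made up most of that sum. Cd68, a macrophage marker outside this list that other cells also express in lysosomes, was higher after the blockade by 2.60 (SE 0.65), with 1.54, 2.95 and 3.30 in the experiments. The part of these markers in the results was not tested. In RNA of whole cultures, fewer cells expressing a gene and less RNA per cell cannot be told apart.

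After α5β1 blockade, the Fos relative Fosl2 and the small Maf factor Maff were higher and the small Maf factor Mafk was lower than in untreated cells. These were the 3 of 12 member probe sets called at an unadjusted p under 0.05 in limma, 2 higher and 1 lower. Over all probe sets, 11.8% were called, 4.53% higher and 7.29% lower. After Benjamini-Hochberg adjustment over the whole table, 0 of the 12 passed a threshold of 0.05, which 0.0221% of all probe sets did. The remaining 9 probe sets, of Fos, Fosb, Fosl1, Jun, Junb, Jund and Atf3, did not pass in this fit, which takes no account of the experiment. With the experiment as a block, the brighter probe sets of Fosl1 and Jun also passed the unadjusted threshold. That made 5 of 12, against 18.2% of all probe sets, and neither of these passed with a random block. After HGF/SF1 stimulation, 0 of 12 were called in limma at either threshold, where 0.849% of all probe sets passed the unadjusted one, and 0 with the experiment as a block, against 1.82%. With 1 probe set a gene, the brightest, the median log2 difference of the 10 members was 0.17 after the blockade and 0.03 after HGF/SF1, against 0.00 and 0.01 over all genes.

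**Figure D1:**
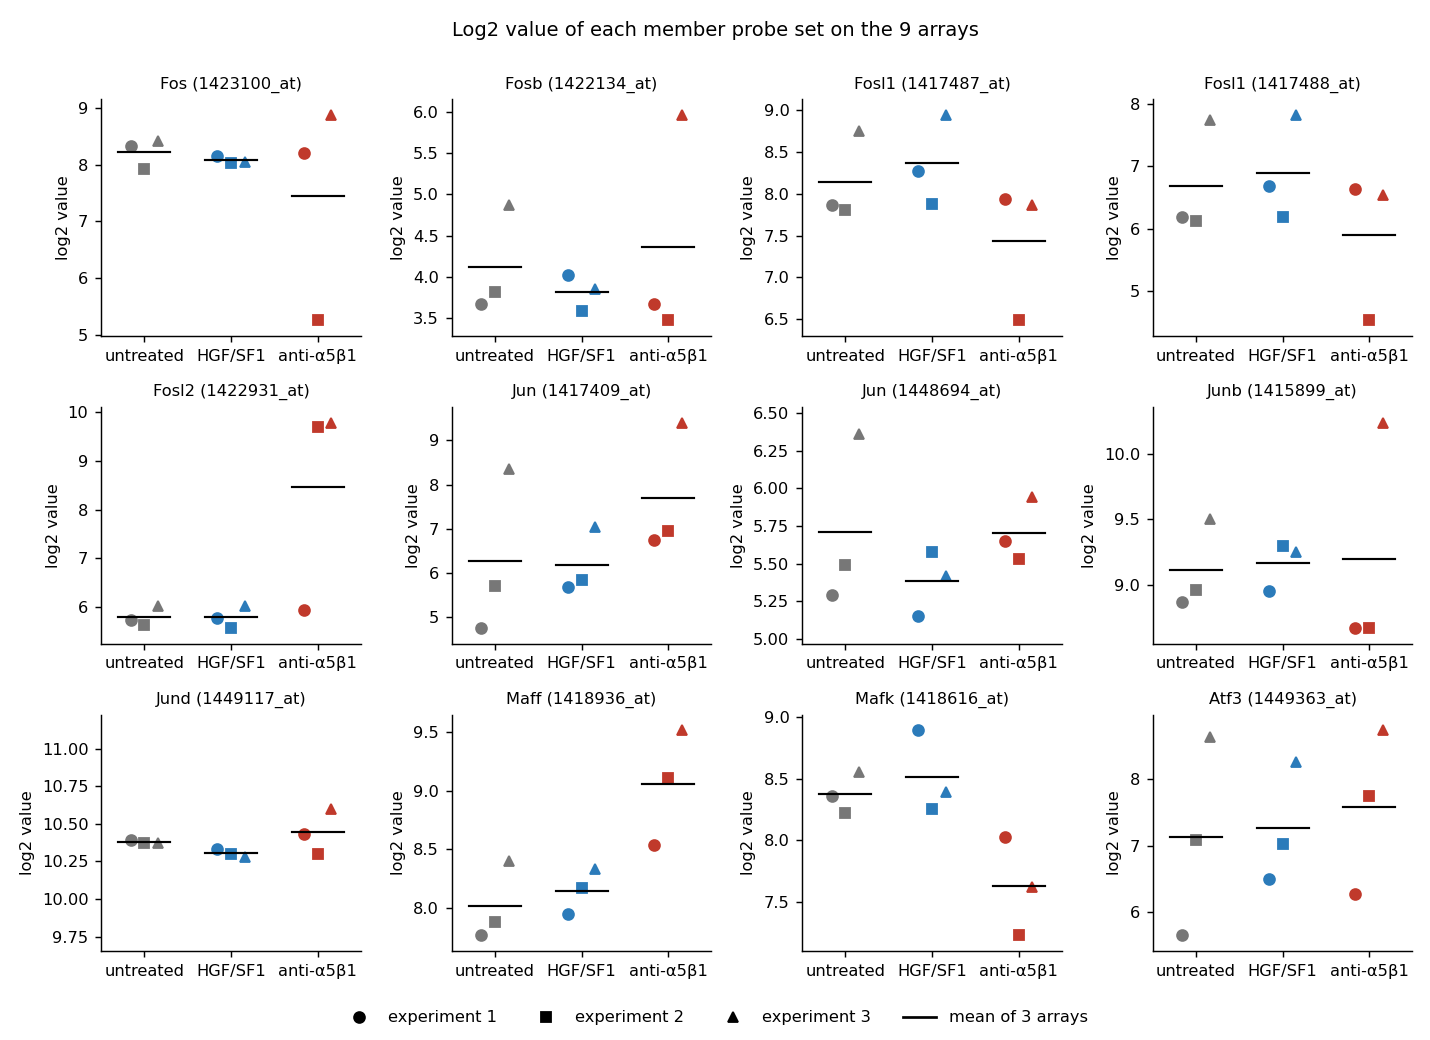
Log2 value (vertical axis, scaled for each panel) of the 12 member probe sets in the 3 conditions (untreated, HGF/SF1, anti-α5β1 antibody), where the symbol gives the experiment and the line the mean of the condition. Fosl2 reached 9.70 and 9.78 on the antibody arrays of experiments 2 and 3 and lay between 5.58 and 6.03 on the 7 others, Maff was above and Mafk below all untreated arrays in the antibody-treated cells, and the arrays of experiment 3 were the highest for the brighter probe set of Jun and for Atf3.

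Maff, Fosl2 and Mafk are shown by the sequence just upstream of a RefSeq start (GRCm38.p6, 5′ to 3′, 150 bases, plus strand), since these were the members called after the blockade. The genes lie at chr15:79346621-79359078 (Maff), chr5:32136472-32157840 (Fosl2) and chr5:139791536-139802653 (Mafk) in that build. Matches to the searched motifs are in capitals, and lower case holds no match.
Maff, chr15:79347370-79347519: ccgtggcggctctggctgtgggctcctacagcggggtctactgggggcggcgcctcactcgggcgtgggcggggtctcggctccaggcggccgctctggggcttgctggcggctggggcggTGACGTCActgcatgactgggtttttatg
Fosl2, chr5:32136322-32136471: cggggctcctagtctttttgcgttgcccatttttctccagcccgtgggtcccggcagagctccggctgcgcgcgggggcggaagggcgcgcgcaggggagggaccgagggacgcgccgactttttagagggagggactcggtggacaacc
Mafk, chr5:139791386-139791535: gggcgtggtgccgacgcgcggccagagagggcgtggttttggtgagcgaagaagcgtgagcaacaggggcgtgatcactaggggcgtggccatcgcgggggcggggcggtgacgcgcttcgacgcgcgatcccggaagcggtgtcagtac
The motifs were searched on both strands from 250 bases before to 50 bases after each start. The capitals mark the cyclic AMP response element TGACGTCA, a site that ATF/CREB factors and AP-1 dimers holding ATF proteins are known to bind. It began at position -29 from 1 of the 3 listed starts of Maff, was found in 1 of 11 member promoters, and occurs in 1.79% of 32851 RefSeq promoters. The AP-1 site TGANTCA, which occurs in 7.81% of promoters, and the CArG box of serum response factor, in 1.63%, were in 0 of the 11 windows. Near matches and sites outside the windows were not counted, so these counts do not show that a gene lacks such a site. The STAT site TTCNNNGAA (8.30% of promoters) was found 27 bases past the same start of Maff. The letters TATAAA of the TATA box (13.6%) were found in Fos, at position -33, and in Junb, at position 0, which is the start itself. The 11 windows belong to 9 of the 10 genes, without Fosl1.

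Among the Fos family, Fosl2 (Fra-2), which extends AP-1 activity after the early wave of Fos, had the largest difference. Its log2 values were 5.73, 5.64 and 6.02 in untreated cells, 5.79, 5.58 and 6.03 after HGF/SF1, and 5.94, 9.70 and 9.78 after the blockade, in experiments 1, 2 and 3. The antibody arrays of experiments 2 and 3 were far above all others, while that of experiment 1 lay within the range of untreated cells. The groups therefore overlapped. By its only probe set, the means in untreated and in HGF/SF1-treated cells were both 5.80, below the median probe set mean of 6.02. Antibody against untreated gave 2.68 on the log2 scale (SE 0.88, n = 3, unadjusted p = 0.0155 and adjusted p = 0.291 from limma), or 6.39-fold, with changes of 0.21, 4.06 and 3.76 within the experiments. Without the antibody array of experiment 1 the difference was 3.94 (SE 0.17, adjusted p = 0.000357 from limma), in a fit where 4.81% of all probe sets passed. The array left out was the antibody array with little change in Fosl2, so the smaller SE follows from that choice. Without the antibody array of experiment 2 the difference was 2.06 (SE 0.93, unadjusted p = 0.0598 from limma), and without that of experiment 3 it was 2.02 (SE 0.91, unadjusted p = 0.0589 from limma). The difference after HGF/SF1 was 0.00, with changes of 0.06, -0.06 and 0.01 within the experiments. Its 95% confidence interval ran from -2.02 to 2.03. The fit shares 1 spread among the conditions, so this width comes mostly from the antibody arrays. Their SD was 2.19, against 0.20 for untreated and 0.22 for HGF/SF1 arrays.

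Fos itself (c-Fos), the prototype of immediate early genes, moved in opposite directions in the antibody arrays. Its log2 values were 8.33, 7.92 and 8.41 in untreated cells, 8.15, 8.03 and 8.04 after HGF/SF1, and 8.20, 5.26 and 8.87 after the blockade. The antibody array of experiment 2 was the lowest of all 9 and that of experiment 3 the highest. The difference of -0.77 (SE 0.78, unadjusted p = 0.349 from limma) was within the spread between arrays, and without the antibody array of experiment 2 it was 0.32 (unadjusted p = 0.193 from limma).

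Fosb is a second Fos protein of the immediate early response. It was dim, with 3.67, 3.82 and 4.87 in untreated cells, 4.02, 3.59 and 3.86 after HGF/SF1 and 3.67, 3.48 and 5.96 after the blockade. The highest array was the antibody array of experiment 3, followed by the untreated array of the same experiment. The difference of the blockade was 0.25 (SE 0.62, unadjusted p = 0.692 from limma).

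Fosl1 (Fra-1) is a late Fos protein that is known for its link to motility and invasion of epithelial cells. By its brighter probe set, the log2 values were 7.87, 7.80 and 8.75 in untreated cells, 8.27, 7.88 and 8.94 after HGF/SF1 and 7.94, 6.49 and 7.87 after the blockade. Antibody arrays were below the untreated array in experiments 2 and 3, by -1.31 and -0.88, and level with it in experiment 1, at 0.07. The difference was -0.70 (SE 0.45, unadjusted p = 0.155 from limma), and the dimmer probe set gave -0.78 (SE 0.69), with 0.45, -1.59 and -1.19. When limma was given the experiment as a block, the brighter probe set was called (SE 0.24, unadjusted p = 0.0241) and the dimmer one was not (unadjusted p = 0.0700). In that fit 5 of 12 member probe sets were called, Fosl2, Maff, Mafk, this one and the brighter one of Jun, against 18.2% of all probe sets, and 0 at an adjusted p, against 0.106%. With the experiment as a random block, at the correlation estimated over all probe sets, the brighter probe set was not called either (unadjusted p = 0.0772 from limma), and 3 member probe sets were called.

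The Jun family differed less clearly between conditions. Jun (c-Jun), the main partner of Fos proteins, had log2 values of 4.76, 5.71 and 8.36 in untreated cells, 5.69, 5.83 and 7.05 after HGF/SF1 and 6.75, 6.96 and 9.40 after the blockade by its brighter probe set. The antibody array was the highest of its experiment in 3 of 3 experiments, although the groups overlapped, since experiment 3 was high in every condition. The changes from untreated cells were 1.99, 1.25 and 1.04, a mean of 1.42 (SE 1.00, unadjusted p = 0.189 from limma). This was 1 of 12 member probe sets changed at least 2-fold one way in each experiment, as were 0.221% of all probe sets. Leaving out 1 array of experiment 3 unbalances the high experiment, and the difference was 2.47 without its untreated array, which was called (unadjusted p = 0.0190 from limma), and 0.58 without its antibody array, which was not (unadjusted p = 0.565 from limma). Without all of experiment 3 it was 1.62 and was called (SE 0.32, unadjusted p = 0.00363 from limma). With the experiment as a block the same difference had an SE of 0.37 and was called (unadjusted p = 0.00686 and adjusted p = 0.122 from limma). A random block, which applies 1 correlation (0.249) to all probe sets, gave an SE of 0.74 and no call (unadjusted p = 0.0870 from limma). The second probe set was dim and gave -0.01 (SE 0.27), with 0.36, 0.04 and -0.42, so that the probe sets of Jun disagreed.

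Junb, which is known to restrain Jun in many contexts, had 8.87, 8.96 and 9.50 in untreated cells, 8.95, 9.30 and 9.25 after HGF/SF1 and 8.67, 8.67 and 10.24 after the blockade. The antibody arrays of experiments 1 and 2 were the lowest of all 9 arrays and that of experiment 3 was the highest. The mean difference was 0.08 (SE 0.40, unadjusted p = 0.840 from limma).

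Jund, the Jun protein that many resting cells express at a steady level, had the narrowest range of the members. Its log2 values were 10.39, 10.37 and 10.37 in untreated cells, 10.33, 10.30 and 10.28 after HGF/SF1 and 10.43, 10.30 and 10.60 after the blockade, a range of 0.326 over all arrays against a median range of 0.667 over all probe sets. The difference after the blockade was 0.07, with a 95% confidence interval from -0.16 to 0.30. After HGF/SF1 it was -0.07 (-0.30 to 0.15, unadjusted p = 0.478 from limma), although the HGF/SF1 arrays all lay below the untreated arrays, as for 1.56% of all probe sets.

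The small Maf factors differed from untreated cells in opposite directions after the blockade, each in 3 of 3 experiments. Maff, which is known to be induced by stress and inflammatory signals, had log2 values of 7.77, 7.88 and 8.40 in untreated cells, 7.95, 8.17 and 8.33 after HGF/SF1 and 8.54, 9.11 and 9.51 after the blockade. All antibody arrays were above all others. The difference was 1.03 (SE 0.26, unadjusted p = 0.00368 and adjusted p = 0.207 from limma), or 2.05-fold, with 0.77, 1.22 and 1.11 within the experiments. Without the antibody array of experiment 1 the difference was 1.29 (SE 0.23, adjusted p = 0.0245 from limma), and without all of experiment 2 it was 0.94 (SE 0.40) and no longer called (unadjusted p = 0.0619 from limma).

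Mafk, a small Maf factor that partners NRF2 and Bach1, had 8.36, 8.22 and 8.55 in untreated cells, 8.89, 8.25 and 8.39 after HGF/SF1 and 8.03, 7.23 and 7.62 after the blockade. All antibody arrays were below all others. The difference was -0.75 (SE 0.23, unadjusted p = 0.0114 and adjusted p = 0.270 from limma), or 1.68-fold lower, with -0.33, -0.99 and -0.93. Without the antibody array of experiment 1 it was -0.95 (SE 0.22, adjusted p = 0.0565 from limma), and without all of experiment 3 it was -0.66 (SE 0.34) and not called (unadjusted p = 0.107 from limma). Antibody-treated and untreated arrays did not overlap for 2 of 12 member probe sets, as for 14.2% of all, with 1 higher (Maff, against 5.80%) and 1 lower (Mafk, against 8.38%). The direction was the same in 3 of 3 experiments for 5 of 12 (Fosl2, the brighter one of Jun, Maff, Mafk and Atf3), against 36.8%. After HGF/SF1 the difference was 0.13 for each of them (95% confidence intervals from -0.46 to 0.73 for Maff and from -0.40 to 0.67 for Mafk).

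Atf3, which stress signals induce in many cell types, had 5.64, 7.09 and 8.64 in untreated cells, 6.50, 7.02 and 8.26 after HGF/SF1 and 6.26, 7.75 and 8.74 after the blockade. The arrays were ordered by experiment and not by condition. The difference after the blockade was 0.46 (SE 0.86, unadjusted p = 0.607 from limma), with 0.62, 0.66 and 0.10 within the experiments, and with the experiment as a block its SE was 0.24 (unadjusted p = 0.0931 from limma).

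Without the antibody array of experiment 1, 0 of the 9 probe sets of Fos, Fosb, Fosl1, Jun, Junb, Jund and Atf3 were called after the blockade. The differences were then -1.15 for Fos, 0.60 for Fosb, -0.96 and -1.14 for Fosl1, 1.90 and 0.02 for Jun, 0.35 for Junb, 0.08 for Jund and 1.12 for Atf3. The untreated array of experiment 1 stayed in this fit, so these values also hold differences between experiments. For Atf3, 1.12 was above each change within an experiment (0.62, 0.66 and 0.10). For the brighter probe set of Jun, 1.90 was above the changes in experiments 2 and 3 (1.25 and 1.04).

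**Figure D2:**
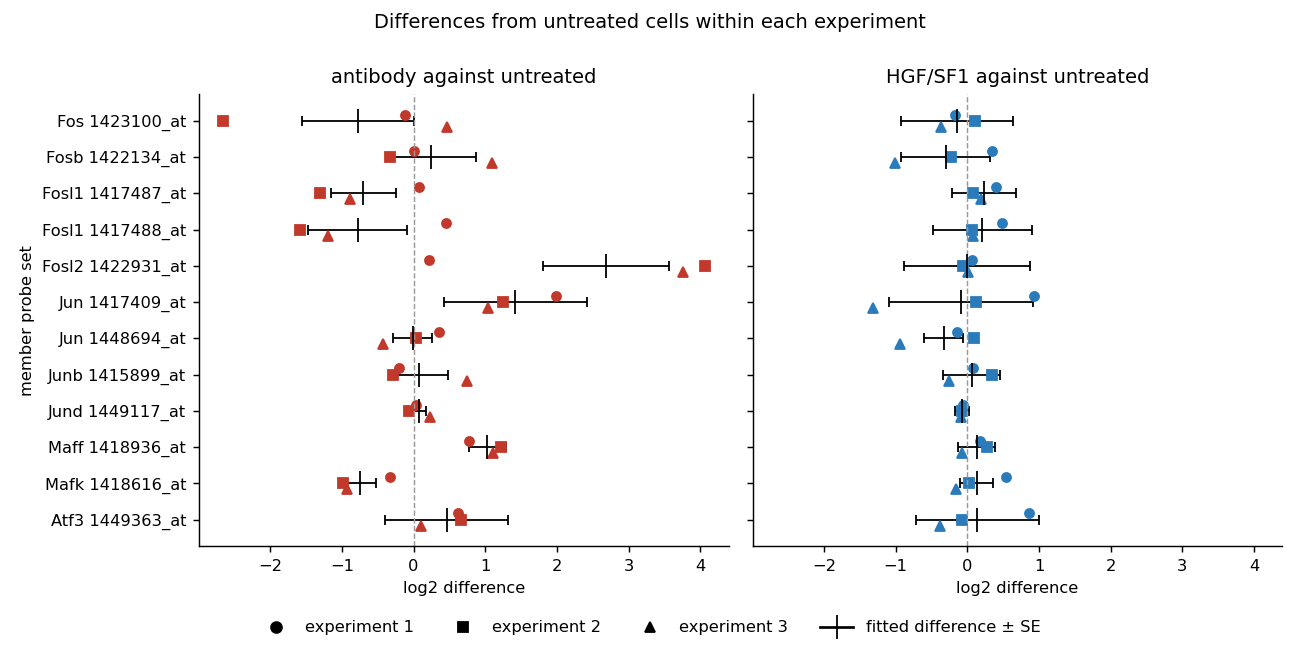
Log2 difference from the untreated array of the same experiment (horizontal axis) for each member probe set after α5β1 blockade (left) and after HGF/SF1 (right), with a marker per experiment and the fitted difference with its standard error (SE) in black. Fosl2 lies at 0.21, 4.06 and 3.76 after the blockade and near 0 after HGF/SF1, Maff and Mafk lie on opposite sides of 0 in all 3 experiments of the blockade, and the changes of Fos lie on both sides.

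The direct comparison of the treatments, which shares its antibody arrays with the comparison above, called the same 3 genes. Antibody-treated cells differed from HGF/SF1-treated cells by 2.67 for Fosl2 (SE 0.88, adjusted p = 0.261 from limma), by 0.90 for Maff (SE 0.26, adjusted p = 0.212) and by -0.88 for Mafk (SE 0.23, adjusted p = 0.188). Each was called at an unadjusted p, as were 13.2% of all probe sets (5.20% higher and 7.96% lower), and 0 at an adjusted p, which 0.0221% passed. The direction was the same in 3 of 3 experiments for 7 of 12, against 34.8%, and the brighter probe set of Jun was again the 1 changed at least 2-fold one way in each, against 0.323%. With the experiment as a block, Maff passed the adjusted threshold (adjusted p = 0.0468 from limma), which 1.07% of all probe sets did, and 6 of 12 member probe sets passed the unadjusted one, against 19.8%. Those added were both probe sets of Fosl1, at -0.93 and -0.99, and the brighter one of Jun, at 1.51. With a random block, Maff did not pass the adjusted threshold (adjusted p = 0.0745 from limma) and 4 members passed the unadjusted one, without Jun (unadjusted p = 0.0723) and the dimmer probe set of Fosl1 (unadjusted p = 0.0990). Without the antibody array of experiment 1, Fosl2 (3.94), Maff (1.16) and Mafk (-1.08) all passed an adjusted p under 0.05, as did 5.06% of all probe sets.

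As for most probe sets on the arrays, the spread of most member probe sets followed the experiment more than the treatment. For 8 of 12 member probe sets the experiment held a larger share of the sum of squares over the 9 arrays than the condition did, which was also so for 57.8% of all probe sets. The share of the experiment was 91.2% for Atf3, 66.0% for the brighter probe set of Jun and 60.5% for Junb, and that of the condition was 3.50%, 25.8% and 0.562%. For Maff, Mafk and Fosl2 the condition held 71.1%, 69.3% and 59.4%, against a median of 23.4% over all probe sets. All 3 arrays of experiment 3 were above all arrays of experiments 1 and 2 for Atf3 (at least 8.26 against at most 7.75) and for that probe set of Jun (at least 7.05 against at most 6.96). This was seen for 2 of 12 member probe sets and 4.28% of all probe sets.

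**Figure D3:**
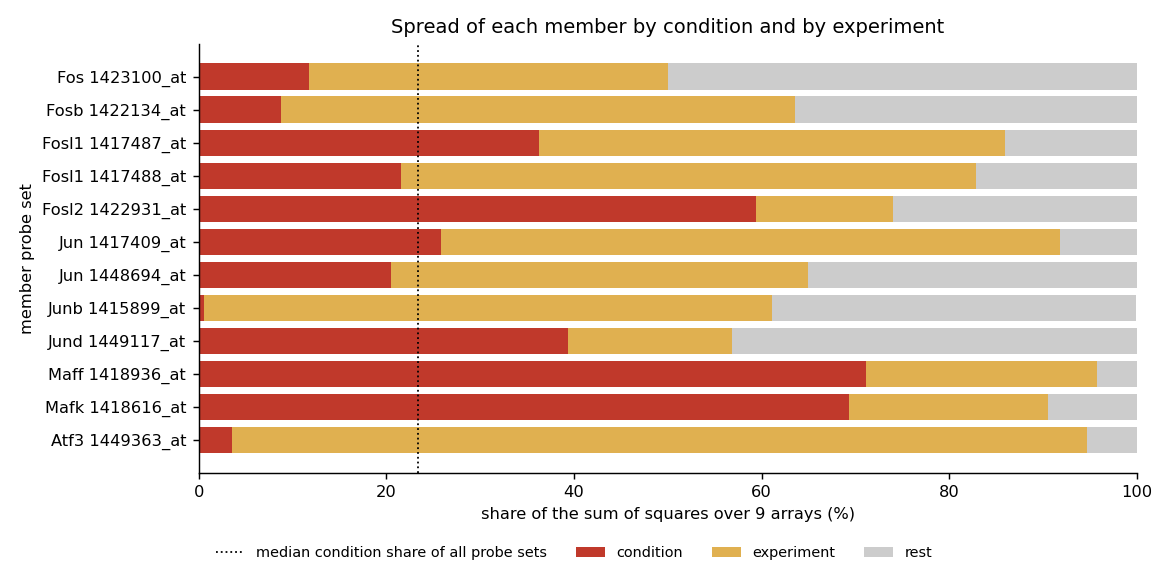
Share of the sum of squares over the 9 arrays (horizontal axis, %) that lies between conditions, between experiments and in the rest, for each member probe set. The condition share is 71.1% for Maff and 3.50% for Atf3, and the dotted line marks the median condition share of all probe sets, 23.4%.

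Genes with a profile most like that of Fosl2 were Pim1, a serine/threonine kinase, St3gal1, a sialyltransferase, Cd68, a lysosomal glycoprotein, Fam161a, a protein of the centrosome and cilium, and Gadd45a, a growth arrest and DNA damage response gene. Likeness was the root mean square difference of the log2 profiles over the 9 arrays, each centred on its own mean. It ran from 0.53 for Pim1 to 0.70 for Gadd45a among 6714 genes of above-median brightness, where the profile of Fosl2 deviated by 1.64 from its mean. Brightness was the mean over all 9 arrays, so a gene could pass through its antibody arrays. Fam161a was at 7.86 and 8.02 on those of experiments 2 and 3 and between 5.27 and 5.83 on the others. The antibody array of experiment 1 was level with the untreated array for Fam161a (0.02) and Gadd45a (0.18), as for Fosl2, but higher for Pim1 (1.88), St3gal1 (1.08) and Cd68 (1.54). For Maff, the nearest profiles were those of Zfp451 (0.13), a zinc finger protein, Ifnar2 (0.17), a subunit of the type I interferon receptor, the kinase Csnk1e (0.17), the host gene Snhg6 (0.17) and the ubiquitin-conjugating enzyme Ube2e2 (0.17), with a deviation of 0.55 for Maff itself. These profiles were chosen for their likeness and were not tested.

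The surroundings of AP-1 were described by gene lists, each gene by its brightest probe set and counted at an unadjusted p under 0.05 in limma, where 4.68% of all genes were higher and 7.92% lower after the blockade. Among 17 bZIP partners and relatives of AP-1 measured, 1 was higher and 2 were lower. Cebpb, a C/EBP factor of the acute phase response, was at 0.87 (SE 0.35), Atf5, a stress-related factor, at -0.95 (SE 0.36) and Creb3, a membrane-bound factor of the secretory pathway, at -0.60 (SE 0.19), each in the same direction in 3 of 3 experiments. When the antibody array of experiment 1 was left out, 3 were higher and 2 lower. Of 10 CNC, Bach and other Maf factors, the partners and relatives of the small Maf proteins, 0 were called. Among 17 other immediate early transcription factors, Bhlhe40 (1.27, SE 0.37) and Nr4a1 (1.21, SE 0.52) were higher and Ier2 (-1.02, SE 0.44) and Ier5 (-0.33, SE 0.12) lower, with a list median of -0.02. Without that array 4 were higher and 3 lower.

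Of 15 measured genes of the MAP kinase cascades, whose end kinases phosphorylate Jun, Fos and ATF proteins, 2 were higher and 2 lower. Mapk9, which encodes the Jun kinase JNK2, was higher at 0.46 (SE 0.15), and the kinase gene Braf, which lay below the median brightness, was higher at 0.31 (SE 0.13). Mapk14, the gene of p38α, was lower at -0.58 (SE 0.19) and Map2k3, a kinase that activates p38, at -0.63 (SE 0.21). With the first antibody array left out, 1 was higher and 3 lower. These values are RNA levels and do not measure kinase activity. The paper reports that the blockade activated the p38 and ERK kinases. Of 9 factors that turn over or restrain AP-1, 0 were called, and 1 was higher without that array. Among 12 genes with Maf recognition or antioxidant elements, 1 was higher, the cystine transporter gene Slc7a11 (1.23, SE 0.51), and 1 lower, the glutathione S-transferase gene Gsta4 (-0.57, SE 0.20), with a list median of -0.21. Without that array 1 was higher and 3 were lower. Other probe sets of the genes named so far from these lists, where there were any, had the same sign.

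Of 23 measured genes that textbook accounts give as having AP-1 sites, 9 were higher and 0 lower after the blockade, and the median log2 difference was 0.47 against 0.00 over all genes. By the mean over all arrays, the 9 include 2 below the median brightness, the integrin gene Itga2 (0.88) and the loricrin gene Lor (0.48). The other 2 probe sets of Lor had the opposite sign. Il6 had a mean of 6.53 over all arrays, but its mean in untreated cells was below the median brightness. Values of several of these genes were known from earlier results of these data when the list was written. The counts and the median therefore describe the list and are no test of it. Those with the smallest p were Adam8, a membrane metalloprotease, at 1.71 (SE 0.32, with 1.47, 1.71 and 1.94 in the experiments), Ptgs2, the inducible prostaglandin synthase, at 2.37 (SE 0.73), the inflammatory cytokine gene Il6 at 2.77 (SE 0.86, with 3.54, 4.43 and 0.32), and Lif, a cytokine of the same family, at 0.64 (SE 0.20, with 1.10, 0.76 and 0.06). In experiment 1 the 9 differences ranged from 0.10 for Vegfa to 3.54 for Il6. The matrix metalloprotease genes Mmp3 (0.00, SE 0.11) and Mmp13 (0.79, SE 1.72) were not called, and neither was the urokinase gene Plau (-0.02, SE 0.09), with Mmp3 and Plau below the median brightness. None of the 9 passed an adjusted p under 0.05 in limma. Under the experiment block 13 were higher, where 7.81% of all genes were, and without the antibody array of experiment 1 there were 10, where 7.71% of all genes were. After HGF/SF1, 0 genes of any of these lists were called in limma at an unadjusted p under 0.05, as 0.533% of all genes were higher and 0.307% lower.

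**Figure D4:**
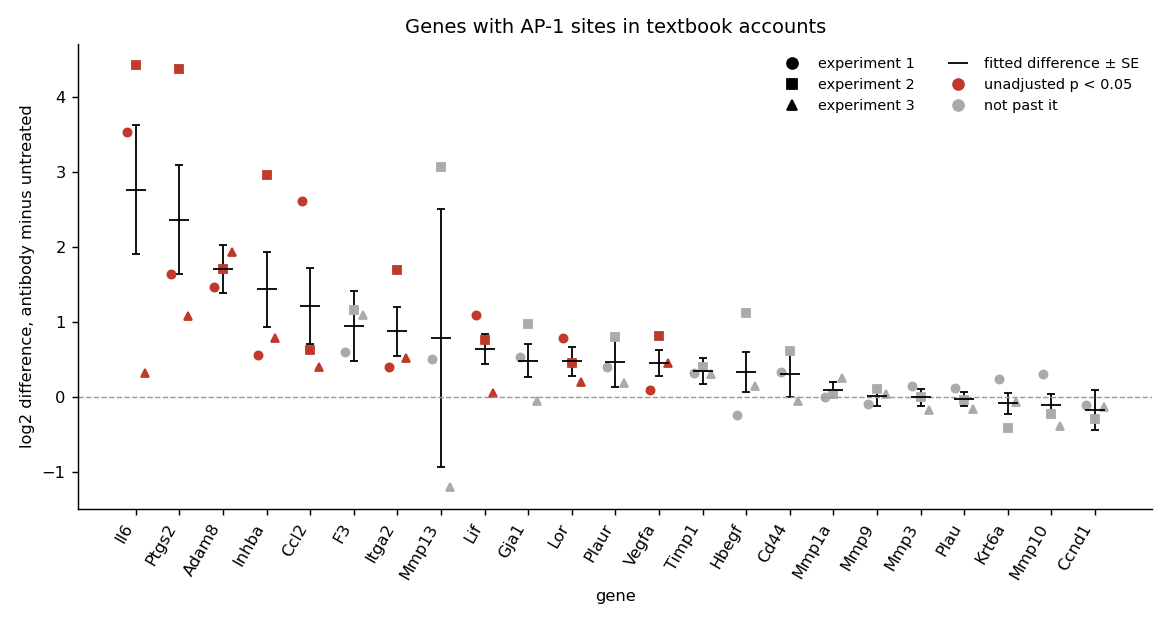
Log2 difference between antibody-treated and untreated cells (vertical axis) for 23 genes with AP-1 sites in textbook accounts, with a marker per experiment and the fitted difference with its standard error in black. The 9 genes past an unadjusted p under 0.05, in red, are all higher, from 0.46 for Vegfa to 2.77 for Il6. Values of several of the genes were known when the list was written.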

How the data were processed

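Per the study's methods, the authors processed the 9 raw files jointly with affylmGUI, correcting the background by rma. Each deposited value is a log2 level of a probe set, and the normalization between arrays and the summary per probe set are not given in the sources used here. Array medians were between 5.91 and 6.08, so the values were used as deposited, after 64 control probe sets of 22690 were left out. Of 22626 probe sets, 20380 name 1 gene, 691 several and 1555 none in the platform annotation, and 20351 matched a RefSeq symbol (GRCm38.p6).

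Samples were grouped by the agent in the labels and numbered as experiments by the day their titles share. A mean for each condition was estimated in R 4.3.3 by limma 3.58.1, whose eBayes step added 2.39 prior to 6 residual degrees of freedom, and every test was two-sided. The pairing comes from the titles and from the statement that each experiment held every condition. After condition means were taken off, arrays of 1 experiment correlated at 0.0958 to 0.591 and others at -0.484 to 0.0308.

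A gene took its brightest probe set. By the mean over all 9 arrays, 10 of the 12 member probe sets lay above the median brightness (not Fosb and the second one of Jun). Fosl2 did so through the antibody arrays of experiments 2 and 3. Named were all members, for every list the called genes of smallest p (at most 4 for the blockade and 2 for HGF/SF1), and the 5 nearest profiles of Fosl2 and Maff. Mmp3, Mmp13, Plau, Vegfa, Itga2 and Lor were named in addition, after their values were seen. The members and lists were chosen with earlier results of these data known. The fit was tested on simulated arrays with planted changes. Alternatives were the experiment as a fixed or random block, scaling, moderation, a brightness filter, fits of 6 arrays, other probe sets for a gene, and leaving out arrays or experiments.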

Additional observations from a re-analysis of the deposited data

How the results depend on the processing

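Fosl2, Maff and Mafk kept their direction after the blockade under every alternative run. With the experiment as a replicate block, the pairing taken from the titles, 4114 probe sets were called for antibody against untreated cells (2674 without), 24 at an adjusted p (5 without) and 5 of 12 member probe sets (3 without), 411 for HGF/SF1 against untreated cells (192 without) and 4490 for antibody against HGF/SF1 (2978 without), with 242 and 1 member at an adjusted p (5 and 0 without) and 6 members at an unadjusted one (3 without). Beyond the calls named with the results, the block changed no other call of a member. A random block gave 41 and 214 at an adjusted p for the antibody against untreated cells and against HGF/SF1, and 374 calls for HGF/SF1, with 3 and 4 members called for the antibody and 0 at an adjusted p. Median centring gave 13 at an adjusted p against HGF/SF1. Trended and robust moderation gave 3 and 2, and fits of 6 arrays 0 and 0. Above the median brightness, 3 passed at an adjusted p for antibody against untreated cells and 14 were called for HGF/SF1.

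When arrays or experiments were left out, calls for antibody against untreated cells ranged from 912 to 4014 (0 to 1088 at an adjusted p), with 1 to 4 members (0 to 2). Calls for HGF/SF1 ranged from 123 to 366, and those for antibody against HGF/SF1 from 1257 to 4114 (0 to 1146), with 1 to 4 members (0 to 3). The lowest counts of calls for the antibody came without experiment 2 and the highest without the antibody array of experiment 1.

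Differences near 0 changed sign. The dimmer probe set of Jun gave 0.05 with median centring and 0.03 with quantile normalization, and -0.22 to 0.32 when arrays or experiments were left out. Such omissions gave, for antibody against untreated cells, -1.48 to 0.32 for Fos, -0.54 to 0.70 for Fosb, -0.44 to 0.35 for Junb, -0.01 to 0.14 for Jund and -0.28 to 1.22 for Atf3. For HGF/SF1 against untreated cells they gave -0.62 to 0.08 for Fosb, -0.06 to 0.53 and -0.25 to 0.73 for Fosl1, -0.11 to 0.11 for Fosl2, -0.84 to 0.96 for the brighter probe set of Jun, -0.09 to 0.25 for Junb, -0.07 to 0.28 for Mafk and -0.61 to 0.89 for Atf3. For antibody against HGF/SF1 they gave -1.36 to 0.47 for Fos, -0.24 to 1.00 for Fosb, -0.50 to 0.35 for Junb, which was called at -0.50 without the antibody array of experiment 3, and -0.25 to 0.99 for Atf3. The cause was not tested. Under the block, lower genes with Maf recognition or antioxidant elements went from 1 to 4, higher bZIP relatives from 1 to 2 and higher turnover factors from 0 to 1. The list counts under the block and without the antibody array of experiment 1 were added after seeing the data.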
